A study of Homo sapiens with 6 samples.

Results

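The AP-1 transcription factor genes described here are FOS, FOSB, FOSL1, FOSL2, JUN, JUNB, JUND, ATF2, BATF3 and MAFF. These 10 genes were chosen by name, by matching the gene IDs of the count tables to symbols, out of 62700 gene IDs. They were measured by RNA sequencing in OVCAR8, an established human ovarian carcinoma cell line that the labels give as wild type. All cells were grown with 10% fetal bovine serum and then kept overnight without serum. In the leptin group (3 libraries) they were then exposed to leptin, a hormone made by fat cells, at 100 ng/ml for 24 h. In the control group (3 libraries) they were exposed to PBS, for a time that the labels do not give. The comparison asks which transcripts change with leptin, with stemness of ovarian cancer as the background interest. One cell line and a single time after treatment limit the model, and no label says that replicates came from separate cultures. The p-values therefore reflect variation among these 6 libraries only, and that variation may be technical.

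AP-1 is not a single protein but a set of dimers. JUN proteins pair with each other, with FOS proteins or with ATF and MAF relatives through a leucine zipper, and the dimers bind short DNA elements: the TRE, preferred by JUN and FOS dimers, and the CRE, preferred by dimers that hold an ATF protein. FOS proteins cannot form stable dimers with each other and need another partner, such as a JUN protein. FOS, FOSB and JUN are immediate early genes, switched on within minutes of serum or growth factor and soon switched off again, whereas JUND, FOSL1 and FOSL2 are often present at steadier levels. In epithelial tumours AP-1 is known for driving proteases, cytokines and growth factor ligands.

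The promoters of FOS, FOSB, JUN and JUND are shown because these genes mark the extremes of the results: FOS and FOSB had the lowest levels, JUND the highest, and JUN is the founding partner. RefSeq entries (GRCh38.p14) were found for 7 of the 10 genes, with 8 start sites in all, since MAFF had 2. Each line is the 250 bases before the annotated start, 5′ to 3′ on the gene's own strand. Capitals mark matches, on either strand, to the CRE core TGACG, the full CRE TGACGTCA, the TRE-like octamer TGACATCA or the TATA box TATAAA. A full CRE holds a core on each strand, so these matches overlap.
FOS: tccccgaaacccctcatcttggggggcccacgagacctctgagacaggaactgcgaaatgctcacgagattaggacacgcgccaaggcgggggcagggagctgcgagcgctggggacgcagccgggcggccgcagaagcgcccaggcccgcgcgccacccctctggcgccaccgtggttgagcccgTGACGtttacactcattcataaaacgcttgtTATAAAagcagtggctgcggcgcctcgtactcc
FOSB: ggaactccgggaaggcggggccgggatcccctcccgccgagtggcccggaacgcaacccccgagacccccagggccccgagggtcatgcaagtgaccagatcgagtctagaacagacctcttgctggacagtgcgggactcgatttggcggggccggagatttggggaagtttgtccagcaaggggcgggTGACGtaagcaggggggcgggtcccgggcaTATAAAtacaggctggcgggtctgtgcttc
JUN: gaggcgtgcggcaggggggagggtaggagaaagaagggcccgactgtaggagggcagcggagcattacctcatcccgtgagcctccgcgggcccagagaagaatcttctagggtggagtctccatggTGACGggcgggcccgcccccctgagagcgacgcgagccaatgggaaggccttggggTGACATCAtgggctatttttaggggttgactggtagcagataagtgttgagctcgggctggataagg
JUND: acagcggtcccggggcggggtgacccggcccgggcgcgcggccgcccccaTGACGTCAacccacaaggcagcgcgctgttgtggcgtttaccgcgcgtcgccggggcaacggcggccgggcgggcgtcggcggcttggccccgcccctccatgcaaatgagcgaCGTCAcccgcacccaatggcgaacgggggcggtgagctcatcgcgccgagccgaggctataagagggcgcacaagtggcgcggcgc
The FOS window lies at chr14:75278578-75278827 (plus strand), FOSB at chr19:45467746-45467995 (plus strand), JUN at chr1:58784048-58784297 (minus strand) and JUND at chr19:18281623-18281872 (minus strand). FOS and FOSB share a layout: a CRE core begins at position -64 in FOS and -60 in FOSB, counted from the start site, and a TATA box begins at -33 and -30. In JUN the TRE-like octamer begins at -67. JUND holds a full CRE that begins at -200, and MAFF holds another that begins at -54. A core was found in 7 of the 8 windows, against 21.2% of the 35116 promoter windows of the same length in the table. A full CRE was found in 2 of 8 (1.65% of all windows), a TATA box in 3 of 8 (10.7%) and the octamer in 1 of 8 (2.37%). The TRE (TGACTCA) was in none of the 8 windows and in 4.2% of all windows. A match describes the letters in these windows and is not a measured binding site.

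**Figure D1:**
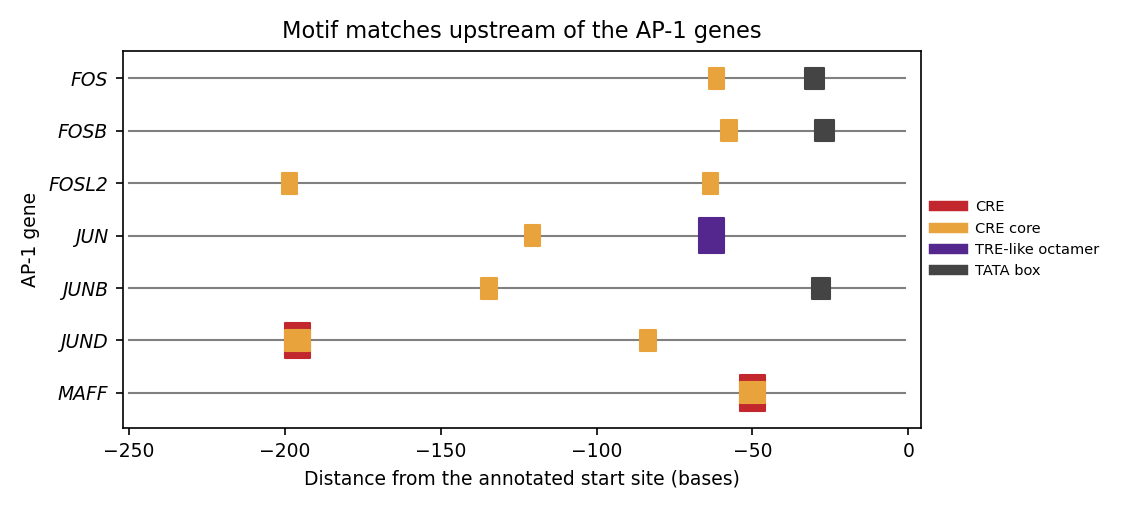
Motif matches in the 250 bases before the annotated start site of 7 AP-1 genes, drawn to scale by distance from the start (x axis, bases), 1 row per gene and, for MAFF, the upstream one of its 2 windows. A CRE core lies between -66 and -56 in FOS, FOSB and FOSL2, and the full CRE lies at -200 in JUND and at -54 in MAFF.

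Leptin libraries held 15609425 to 17238432 assigned read pairs and control libraries 15993104 to 18577775. Principal component 1 took up 49.6% of the variance, and on it leptin replicate 1 stood at -2.15, between leptin replicates 2 and 3 (46.3 and 39.6) and the controls (-31.0 to -23.6), so values without it are given where they change the call of an AP-1 gene or of a gene named below. Fold changes also moved with GC content: the median log2 fold change of all tested genes was 0.30 in the fifth with most GC and -0.13 in the fifth with least. JUND, JUNB, MAFF and FOSL1 belong to the fifth with most GC and ATF2 to the fifth with least. Of 10 markers of ovarian carcinoma epithelium, 8 passed the filter on low counts. PAX8, the lineage factor, stood at 358 to 369 CPM (counts relative to the library total after TMM scaling, a correction for RNA composition) with leptin and 354 to 370 CPM in controls, whereas MUC16 and MSLN did not pass the filter. Some that passed were low: CDH1 averaged 0.731 CPM with leptin and 0.247 CPM in controls, WT1 2.98 and 2.39, and EPCAM 5.48 and 3.98. The epithelial markers did not all stay level: KRT19 fell, to 38.7 ± 0.967 CPM with leptin against 102 ± 9.63 CPM in controls (SD, n = 3 each; log2 fold change -1.40 ± 0.11, SE; edgeR adjusted p = 0.000139). KRT7 averaged 547 ± 238 CPM with leptin and 332 ± 44.3 CPM in controls (edgeR adjusted p = 0.166). It passed without leptin replicate 1 (log2 fold change 1.03, edgeR adjusted p = 1.01e-05). The immune markers summed to 2.61 to 4.84 CPM with leptin and 1.85 to 2.52 CPM in controls, nearly all of it CSF1R, with PTPRC, CD3D and CD3E at 0 counts. A count of 0 allows up to 3 counts, 0.158 to 0.200 CPM in these libraries. Summed endothelial markers stood at 2.07 to 3.86 CPM with leptin and 3.27 to 5.09 CPM in controls. Fibroblast markers summed to 357 to 520 CPM with leptin and 461 to 657 CPM in controls, mostly COL1A1. For COL1A1 edgeR gave -0.42 on the log2 scale (adjusted p = 0.130), and without leptin replicate 1 -0.58 (adjusted p = 0.00344). Adipocyte markers summed to 29.2 to 56.4 CPM with leptin and 19.9 to 26.8 CPM in controls, mostly CFD, with LPL and LEP at 0 counts. CFD rose, to 43.4 ± 14.9 CPM with leptin against 23.5 ± 3.51 CPM in controls (log2 fold change 0.89 ± 0.23, SE, edgeR adjusted p = 0.0388). CFD shares 14% of its exonic bases with MED16, a gene with more counts, so its value is uncertain. The part of these markers in the results was not tested.

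With leptin the transcript of FOS fell to 0.219 times its control level, and the other 8 tested AP-1 genes, among them the abundant JUND, JUN, JUNB, FOSL1 and FOSL2, did not pass the test. In bulk RNA, fewer cells with a transcript and less of it per cell cannot be told apart. Of the 10 genes 9 passed the filter on low counts, all but FOSB, and edgeR's quasi-likelihood test called 1 of these 9 (adjusted p under 0.05), FOS. The background was 9.81% of all 15685 tested genes called, 5.71% higher and 4.09% lower, so the share of AP-1 genes called was close to the background. None rose by edgeR. At an unadjusted p under 0.05 there were 3 higher and 1 lower, against 15.4% higher and 12.2% lower over all tested genes (27.6% in either direction). DESeq2 called 1 higher, JUND, beside FOS, against 15.6% of the 14466 genes to which it gave an adjusted p (9.35% higher, 6.20% lower). The median log2 fold change of the 9 genes was 0.20, against 0.01 over all tested genes. Leptin and control libraries did not overlap for 3 of the 9 genes (FOS, ATF2 and BATF3), against 32.2% of all tested genes. The number called was 0 without any one of control replicates 1, 2 and 3 and without leptin replicate 3, 4 without leptin replicate 1 (FOS and JUN lower, JUND and MAFF higher) and 1 without leptin replicate 2. Over all tested genes the same leave-outs called 115 (control replicate 1), 366 (control 2), 170 (control 3), 4761 (leptin 1), 788 (leptin 2) and 268 (leptin 3).

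FOS, the prototype immediate early gene (ENSG00000170345.10, hg38 chromosome 14, 75278826 to 75282230, plus strand), was counted 19, 5 and 9 times in leptin replicates 1, 2 and 3, against 54, 66 and 37 times in control replicates 1, 2 and 3. The exact 95% Poisson intervals of these counts together spanned 1.62 to 29.7 in leptin libraries and from 26.1 to 84.0 in controls, and cover counting error only. In CPM these were 1.10, 0.334 and 0.534 with leptin, against 2.85, 4.10 and 2.22 in controls. All leptin libraries lay below all controls. FOS averaged 0.655 ± 0.395 CPM with leptin and 3.06 ± 0.957 CPM in controls (SD, n = 3 each), a log2 fold change of -2.19 ± 0.44 (SE, edgeR adjusted p = 0.0151). The size of the difference was kept when libraries were left out, between -2.78 and -1.89 on the log2 scale, but the call was not: edgeR's adjusted p was 0.0808, 0.0839 and 0.0534 with control replicate 1, 2 or 3 left out, and 0.000261, 0.0431 and 0.0782 with leptin replicate 1, 2 or 3 left out.

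FOSB, the second immediate early FOS gene (chromosome 19, 45467995 to 45475179), was close to the limit of detection. It had 2, 5 and 5 counts in leptin replicates 1, 2 and 3, against 11, 6 and 7 counts in control replicates 1, 2 and 3. Its leptin libraries also lay below its controls, at 0.115, 0.334 and 0.297 CPM against 0.580, 0.373 and 0.420 CPM, but the intervals of the counts overlapped. Without the filter on low counts its log2 fold change was -0.88 ± 0.84 (SE, edgeR adjusted p = 0.632), so no difference was detectable at this depth.

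FOSL1, which encodes FRA1 (chromosome 11, 65892049 to 65900573, minus strand), and FOSL2, which encodes FRA2 (chromosome 2, 28392448 to 28417317, plus strand), carried nearly all FOS family transcript. FOSL1 stood at 82.7, 128 and 135 CPM in leptin replicates 1, 2 and 3, against 133, 116 and 139 CPM in control replicates 1, 2 and 3. Leptin replicate 1 alone was low. The log2 fold change of -0.17 ± 0.17 did not pass (SE, edgeR adjusted p = 0.562). It was -0.40 with the GC trend removed (edgeR adjusted p = 0.158) and 0.01 without leptin replicate 1. FOSL2 moved the other way in that library, at 416, 366 and 329 CPM with leptin, against 314, 324 and 330 CPM in controls. Leptin replicates 1 and 2 lay above all controls and replicate 3 within them, and the log2 fold change was 0.20 ± 0.12 (SE, edgeR adjusted p = 0.301).

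**Figure D2:**
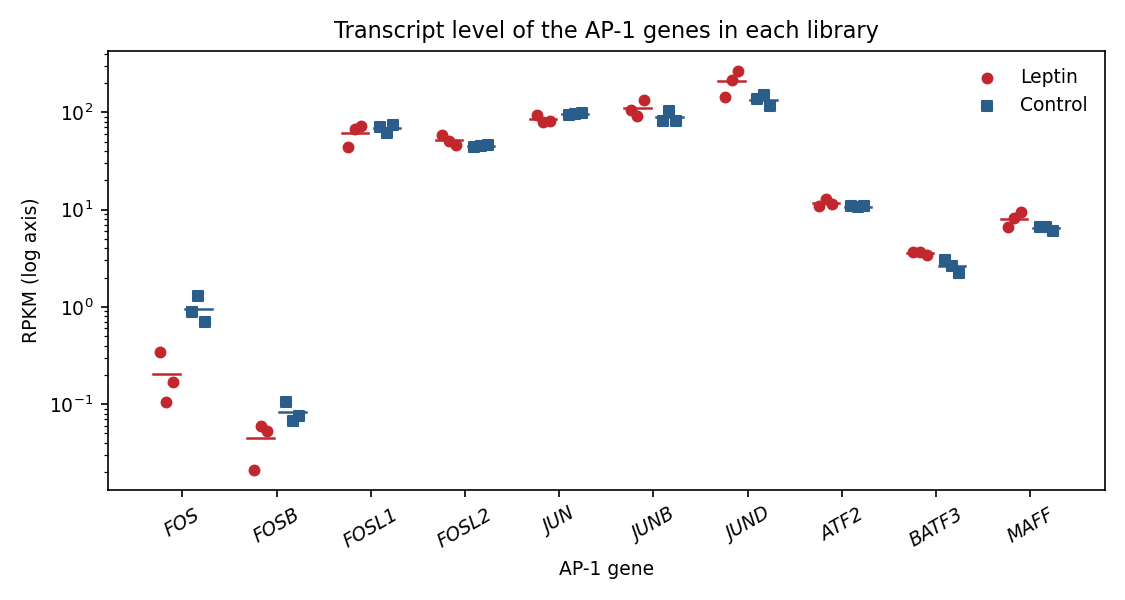
Level of each of the 10 AP-1 genes (x axis) in each library, in RPKM (y axis, log axis; CPM divided by the exon length in kilobases). Points are libraries, in the order of replicates 1, 2 and 3, leptin (red circles) left of control (blue squares), and lines are group means; FOS and FOSB lie below 2 RPKM in every library and JUND is at the top of both groups.

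The JUN genes differed among themselves. JUN (chromosome 1, 58776845 to 58784048, minus strand), the partner in the classic FOS dimer, stood at 343, 289 and 297 CPM in leptin replicates 1, 2 and 3, against 342, 344 and 356 CPM in control replicates 1, 2 and 3. Leptin replicates 2 and 3 were below all controls and replicate 1 was among them. Its log2 fold change was -0.17 ± 0.11 (SE; edgeR adjusted p = 0.367). Without leptin replicate 1 it was -0.26 and passed (edgeR adjusted p = 0.0465). With the GC trend removed it was -0.28 and did not pass (edgeR adjusted p = 0.135).

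JUND, a JUN protein that restrains growth in mouse fibroblasts (chromosome 19, 18279694 to 18281622, minus strand), had the largest positive log2 fold change among the 9 tested genes. It stood at 279, 415 and 514 CPM in leptin replicates 1, 2 and 3, against 264, 288 and 226 CPM in control replicates 1, 2 and 3. Leptin replicates 2 and 3 lay above the controls and replicate 1 lay among them, so the groups overlapped. JUND had a log2 fold change of 0.63 ± 0.19 (SE), with an edgeR adjusted p of 0.0611. It passed with DESeq2 (adjusted p = 0.0123), without the filter on low counts (edgeR adjusted p = 5.05e-05) and without leptin replicate 1 (log2 fold change 0.83, edgeR adjusted p = 6.2e-05). With each library's GC trend removed the log2 fold change was 0.03 (edgeR adjusted p = 0.911), and it was 0.07 (edgeR adjusted p = 0.623) when leptin replicate 1 was also left out. The GC content of the longest JUND transcript was 69.7%, the highest of the 10 genes.

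JUNB (chromosome 19, 12791486 to 12793315, plus strand), which can oppose JUN in mouse cells, stood at 194, 168 and 246 CPM in leptin replicates 1, 2 and 3, against 147, 190 and 150 CPM in control replicates 1, 2 and 3. Replicates 1 and 3 with leptin were above all controls, but control replicate 2 was above leptin replicate 2. Its log2 fold change was 0.32 ± 0.16 (SE; edgeR adjusted p = 0.209), and with the GC trend removed it was -0.08 (edgeR adjusted p = 0.775). Of the exonic bases of JUNB, 14.2% are shared with HOOK2, which lies on the other strand and had fewer counts.

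Among the partners outside the FOS and JUN families, differences were small. ATF2, which pairs with JUN at CRE sites (chromosome 2, 175072250 to 175168382, minus strand), stood at 62.8, 72.8 and 66.0 CPM in leptin replicates 1, 2 and 3, against 62.5, 60.5 and 62.3 CPM in control replicates 1, 2 and 3. The groups did not overlap, but the gap was narrow, and ATF2 missed the threshold at a log2 fold change of 0.12 ± 0.10 (SE; edgeR adjusted p = 0.490). With the GC trend removed the log2 fold change of ATF2 was 0.27, also short of the threshold (edgeR adjusted p = 0.135). BATF3, best known as a factor of dendritic cells (chromosome 1, 212686417 to 212699840, minus strand), stood at 9.40, 9.29 and 8.85 CPM with leptin, against 7.75, 6.71 and 5.70 CPM in controls. All 3 leptin libraries were above all controls and agreed closely, with an SD of 0.291 CPM. BATF3 also missed it, at a log2 fold change of 0.45 ± 0.18 (SE; edgeR adjusted p = 0.129). This was 0.53 (edgeR adjusted p = 0.0971) with the GC trend removed. MAFF, a small MAF protein without a transactivation domain (chromosome 22, 38200767 to 38216507, plus strand), stood at 37.0, 45.9 and 53.1 CPM with leptin, against 37.4, 36.7 and 33.5 CPM in controls. Leptin replicates 2 and 3 were above all controls. MAFF missed it too, at 0.34 ± 0.14 on the log2 scale (SE; edgeR adjusted p = 0.141). Without leptin replicate 1 it was 0.46 and passed (edgeR adjusted p = 0.00566), and with the GC trend removed it was 0.04 (edgeR adjusted p = 0.866). Of the exonic bases, 5.06% in ATF2 and 5.81% in MAFF are shared with other genes; for MAFF that gene is PLA2G6, on the other strand.

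**Figure D3:**
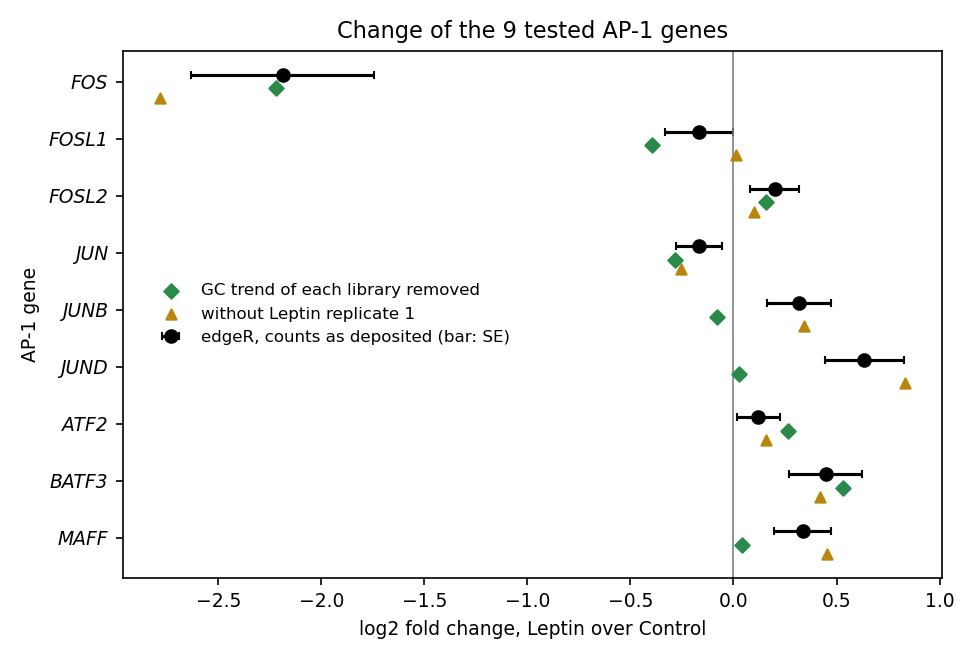
Log2 fold change of leptin over control (x axis) for the 9 AP-1 genes that passed the filter on low counts (y axis). Black circles with SE bars are edgeR on the counts as deposited, green diamonds have each library's GC trend removed and yellow triangles leave out leptin replicate 1; FOS lies below -1.8 in each, and JUND, JUNB and MAFF lie within 0.08 of 0 with the GC trend removed.

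Leptin replicates were spread more widely than controls for 8 of the 9 tested genes, as they were over all tested genes, where the median SD of log2 CPM was 0.24 with leptin and 0.12 in controls. For JUND these SDs were 0.45 and 0.18, for FOSL1 0.39 and 0.13 and for FOS 0.72 and 0.43. BATF3 was the exception, with 0.05 with leptin and 0.22 in controls.

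Levels were compared between genes per kilobase of exon (RPKM). With leptin the order of group means was JUND (209 ± 61.3), JUNB (111 ± 21.7), JUN (85.4 ± 8.11), FOSL1 (61.0 ± 15.0), FOSL2 (51.7 ± 6.13), ATF2 (11.7 ± 0.882), MAFF (8.08 ± 1.44), BATF3 (3.57 ± 0.113), FOS (0.205 ± 0.124) and FOSB (0.0448 ± 0.0211 RPKM; SD, n = 3 each). In controls JUND stood at 134 ± 16.2, JUN at 95.8 ± 2.05 and JUNB at 88.8 ± 13.0 RPKM, and FOS at 0.959 ± 0.3 RPKM. The order was the same in both groups except that JUN and JUNB changed places, and the libraries of these neighbours overlapped in both groups. FOSL1 and FOSL2 overlapped with leptin and not in controls. All other neighbours were separate in both groups, as judged by the ranges over libraries. With leptin, FOS and FOSB were separate only after division by exon length, since both had 5 counts in leptin replicate 2.

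Within the FOS family, FOS made up 0.336%, 0.0881% and 0.143% of the summed RPKM in leptin replicates 1, 2 and 3, against 0.775%, 1.19% and 0.579% in control replicates 1, 2 and 3. The family was thus FOSL1 and FOSL2 almost entirely in every library, and its summed level was 102 to 119 RPKM with leptin and 108 to 120 RPKM in controls. FOSL2 exceeded FOSL1 in leptin replicate 1 alone, with 56.8% of the family; its share was 42.9% and 39.1% in leptin replicates 2 and 3 and 38.0% to 41.8% in controls. Within the JUN family, JUND made up 41.9%, 55.7% and 55.2% in leptin replicates 1, 2 and 3, against 44%, 42.9% and 39.4% in control replicates 1, 2 and 3. JUN made up 27.4%, 20.6% and 17% with leptin, against 30.2%, 27.3% and 33% in controls. Leptin replicates 2 and 3 thus had a larger JUND share and a smaller JUN share than any control, while leptin replicate 1 lay at the controls. The shares were not recomputed with the GC trend removed, where the log2 fold change of JUND was 0.03. The part of GC content in them was not tested.

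**Figure D4:**
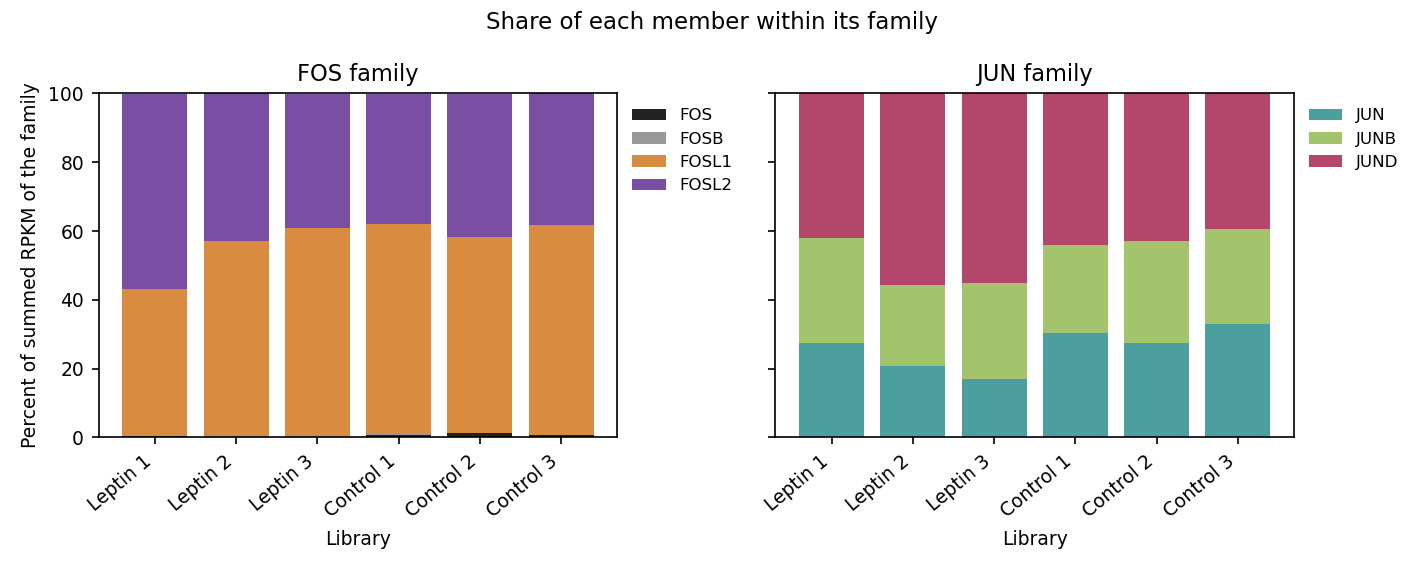
Share of each gene in the summed RPKM of its family (y axis, percent) in each library (x axis), FOS family left and JUN family right, leptin libraries before controls. FOS and FOSB are hardly visible in any bar, FOSL2 is the larger part in leptin replicate 1 with 56.8%, and JUND takes 55.7% and 55.2% in leptin replicates 2 and 3.

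Among other bZIP genes, the relatives and partners of AP-1, 4 of 24 tested rose and none fell by edgeR (at an unadjusted p under 0.05 there were 6 higher and 0 lower, and DESeq2 called 6 higher and 0 lower). The share called was 16.7%, against 9.81% of all tested genes, and the median log2 fold change was 0.23, against 0.01. ATF3, an inducible stress factor that pairs with JUN, stood at 3.11, 8.82 and 7.84 CPM in leptin replicates 1, 2 and 3, against 2.21, 2.24 and 2.70 CPM in control replicates 1, 2 and 3 (log2 fold change 1.46 ± 0.35, SE; edgeR adjusted p = 0.0278). The large MAF factor gene MAF averaged 33.9 ± 5.25 CPM with leptin and 19.1 ± 1.98 CPM in controls (SD, n = 3 each; edgeR adjusted p = 0.00861). ATF4, of the amino acid stress response, averaged 740 ± 128 CPM with leptin and 464 ± 27.5 CPM in controls (edgeR adjusted p = 0.0166), and DDIT3, which encodes CHOP, 72.2 ± 34.4 CPM with leptin and 22.2 ± 3.4 CPM in controls (edgeR adjusted p = 0.0252). DDIT3 shares 39.6% of its exonic bases with MARS1, a gene with more counts, so its value is uncertain. JDP2, which represses at AP-1 sites, stood at 59.3 ± 5.13 CPM with leptin and 49.5 ± 7.59 CPM in controls (edgeR adjusted p = 0.218). Leaving out control replicate 1, 2 or 3 gave 0, 1 and 0 calls, and leaving out leptin replicate 1, 2 or 3 gave 7, 2 and 2.

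Of 45 tested genes of the MAPK cascades and the SRF and ELK factors, which act upstream of FOS and JUN, 3 rose and none fell by edgeR (unadjusted p under 0.05: 8 higher, 4 lower; DESeq2: 7 higher, 1 lower). The share called was 6.67%, against 9.81% of all tested genes, and the median log2 fold change was -0.01. The p38 kinase gene MAPK12 averaged 27.7 ± 5.79 CPM with leptin and 10.4 ± 0.549 CPM in controls (log2 fold change 1.42 ± 0.17, SE; edgeR adjusted p = 0.0023) and passed in all 6 leave-outs. It shares 29.7% of its exonic bases with HDAC10, whose mean count was 1.69% of that of MAPK12. MAPK11, another p38 gene, averaged 71.2 ± 14.2 CPM with leptin and 45 ± 4.06 CPM in controls (edgeR adjusted p = 0.0225, and 0.150 with the GC trend removed), and DUSP4, a MAPK phosphatase gene, 122 ± 34.3 CPM with leptin and 70.3 ± 4.79 CPM in controls (edgeR adjusted p = 0.024). MAPK3, a kinase gene of the ERK cascade, MAPK8, which encodes JNK1, and the transcription factor genes ELK1 and SRF had log2 fold changes between -0.01 and 0.15, and none of these 4 passed (edgeR adjusted p between 0.502 and 0.994). The number called was 1 in each leave-out except that without leptin replicate 1, where it was 17.

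Of 26 tested immediate early genes outside AP-1, 3 rose and 1 fell by edgeR, which is 15.4% of them against 9.81% of all tested genes. The balance of directions depended on the rule: at an unadjusted p under 0.05 there were 5 higher and 5 lower, DESeq2 called 3 higher and 4 lower, and without the filter on low counts edgeR called 4 higher and 4 lower. The median log2 fold change was 0.08. DUSP1, a MAPK phosphatase, stood at 32.6, 27.7 and 34 CPM in leptin replicates 1, 2 and 3, against 41.2, 46.2 and 41.4 CPM in control replicates 1, 2 and 3 (log2 fold change -0.45 ± 0.12, SE; edgeR adjusted p = 0.0406). EGR1, which shares SRF-driven control with FOS, stood at 18.3, 3.01 and 6.29 CPM with leptin, against 19.7, 37.3 and 19.7 CPM in controls. Its leptin libraries lay below its controls, but with a wide error, at a log2 fold change of -1.46 ± 0.60 (SE; edgeR adjusted p = 0.174). Without leptin replicate 1 it was -2.45 ± 0.39 and passed (SE; edgeR adjusted p = 0.00205). FOS and EGR1 had their highest level in control replicate 2, and within the leptin group both were highest in replicate 1 and lowest in replicate 2. PPP1R15A, a phosphatase subunit of the stress response, averaged 179 ± 72.1 CPM with leptin and 57.3 ± 6.51 CPM in controls (edgeR adjusted p = 0.0142). PHLDA1 averaged 889 ± 204 CPM with leptin and 579 ± 58 CPM in controls (edgeR adjusted p = 0.0432), and NFIL3, itself a bZIP repressor, 44.6 ± 8.02 CPM with leptin and 31.2 ± 2.33 CPM in controls (edgeR adjusted p = 0.0454). Calls numbered 0, 1 and 0 when control replicate 1, 2 or 3 was left out, and 10, 0 and 0 when leptin replicate 1, 2 or 3 was.

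Of 40 tested genes known as AP-1 targets in various tissues, 9 fell and 2 rose by edgeR, which is 27.5% of them against 9.81% of all tested genes (4.09% lower, 5.71% higher). At an unadjusted p under 0.05 there were 18 lower and 4 higher, and DESeq2 called 14 lower and 4 higher. The median log2 fold change was -0.30, against 0.01 over all tested genes. Like the other related lists, this one was chosen with earlier results of these data known, so its share is not an independent result. The gap junction gene GJA1 stood at 2.13, 1.14 and 1.13 CPM in leptin replicates 1, 2 and 3, against 7.86, 7.64 and 6.84 CPM in control replicates 1, 2 and 3 (log2 fold change -2.33 ± 0.28, SE; edgeR adjusted p = 0.00232). The EGFR ligand gene EREG averaged 2.14 ± 0.416 CPM with leptin and 7.63 ± 1.74 CPM in controls (edgeR adjusted p = 0.00407). MMP7, which encodes the protease matrilysin, averaged 4.74 ± 0.909 CPM with leptin and 13.7 ± 3.39 CPM in controls (edgeR adjusted p = 0.00445). The keratin gene KRT17 averaged 4.14 ± 0.738 CPM with leptin and 12 ± 2.96 CPM in controls (edgeR adjusted p = 0.00475), and the chemokine gene CXCL8 49.8 ± 8.79 CPM with leptin and 109 ± 33.4 CPM in controls (edgeR adjusted p = 0.00943). DNMT1, TIMP1, F3 and IL6 also fell (edgeR adjusted p = 0.0302, 0.0378, 0.0392 and 0.0493). In the other direction CDKN1A, which encodes the cell cycle inhibitor p21, averaged 85.2 ± 35.7 CPM with leptin and 33.1 ± 2.48 CPM in controls (edgeR adjusted p = 0.0276). VEGFA rose as well (edgeR adjusted p = 0.0277). Widely used AP-1 targets did not pass with all libraries: CCND1 averaged 372 ± 133 CPM with leptin and 295 ± 8.67 CPM in controls (edgeR adjusted p = 0.333), the collagenase gene MMP1 1656 ± 452 CPM with leptin and 1398 ± 178 CPM in controls (0.425), and the urokinase gene PLAU 292 ± 58.1 CPM with leptin and 319 ± 27.5 CPM in controls (0.632). Without leptin replicate 1, CCND1 passed (log2 fold change 0.55 ± 0.12, SE; edgeR adjusted p = 0.0034), while the log2 fold change of MMP1 was -0.01 against 0.25 with all libraries. With control replicate 1, 2 or 3 left out 4, 5 and 5 targets were called, and with leptin replicate 1, 2 or 3 left out 25, 5 and 4. All of these calls were lower with leptin, except 6 of the 25 without leptin replicate 1. Removing the GC trend left 7 targets called lower and 1 higher.

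**Figure D5:**
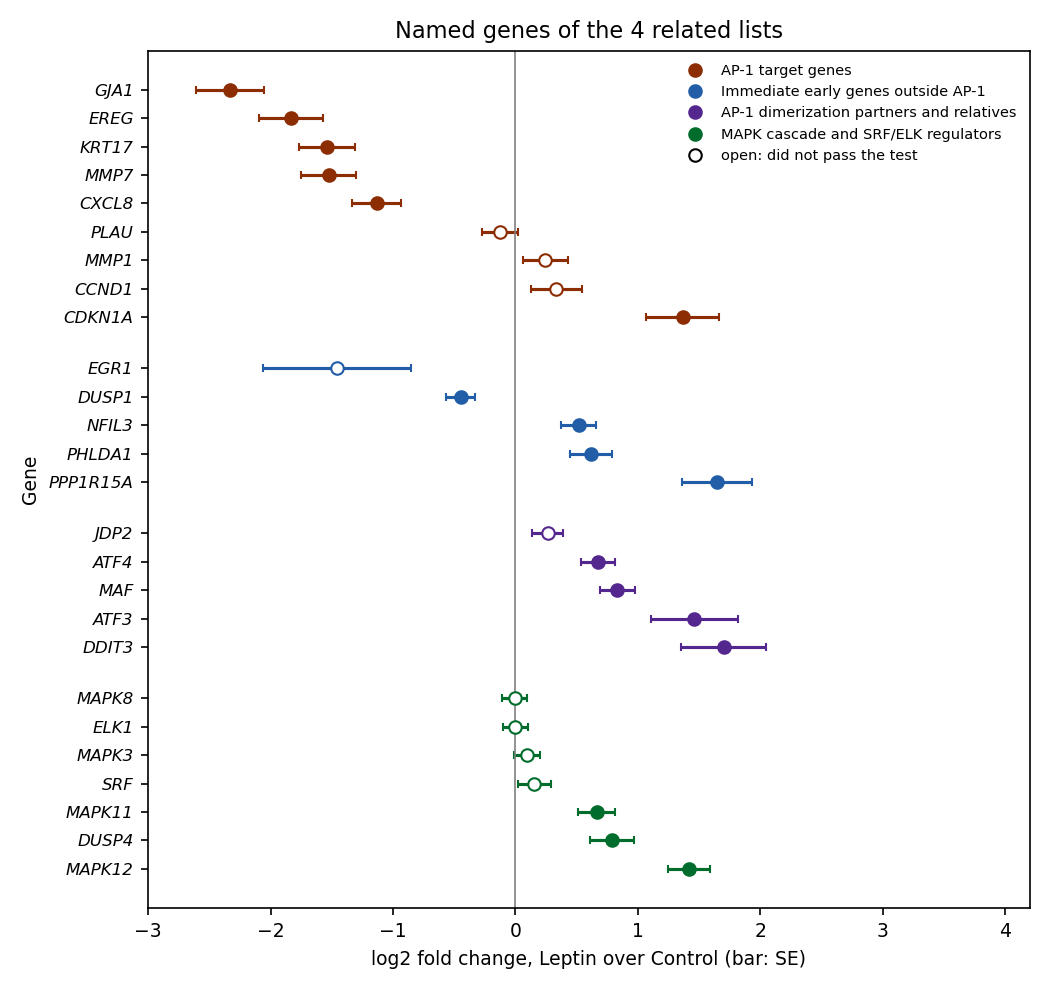
Log2 fold change of leptin over control with its SE (x axis) for genes (y axis) of the 4 related gene lists whose levels are given in the text, coloured by list. Filled circles passed edgeR's test at an adjusted p under 0.05 and open circles did not. DNMT1, TIMP1, F3, IL6 and VEGFA, given in the text by adjusted p only, are not drawn. GJA1, at -2.33, and EREG lie furthest to the left, and DDIT3 and PPP1R15A lie above 1.6.

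GJA1, EREG, MMP7 and KRT17 passed in all 6 leave-outs. Of the other called genes of these lists with values given above, MAF did so in 4, CXCL8 in 3, ATF4, DDIT3 and PPP1R15A in 2, and ATF3, MAPK11, DUSP4, DUSP1, NFIL3, PHLDA1 and CDKN1A in 1. CDKN1A also lost its call with the GC trend removed (edgeR adjusted p = 0.0584). Among the leave-outs, VEGFA passed only in that of leptin replicate 1. Without control replicate 1, and also without leptin replicate 3, the only 4 targets called were GJA1, EREG, MMP7 and KRT17. DNMT1, TIMP1, F3 and IL6 therefore lost their calls in both of these leave-outs.

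The genes whose pattern over the 6 libraries was most like that of FOS were GJA1, PAK3 and GBP2, by the root-mean-square difference of log2 CPM centred on each gene's mean, among 12326 protein-coding genes with at least 1 CPM on average. These differences were 0.298, 0.311 and 0.318 on the log2 scale. By edgeR the adjusted p for leptin against control was 0.0694 for PAK3 and 0.0427 for GBP2. The kinase gene PAK3 stood at 1.15, 0.200 and 0.534 CPM in leptin replicates 1, 2 and 3, against 2.27, 2.36 and 1.38 CPM in control replicates 1, 2 and 3. GBP2, an interferon-induced GTPase gene, stood at 1.73, 0.468 and 0.416 CPM with leptin, against 3.58, 3.67 and 2.16 CPM in controls. In all 3 genes leptin replicate 1 was the highest leptin library and control replicate 3 the lowest control, as for FOS. This shared order follows from choosing the genes by likeness to FOS in these same libraries. The value of PAK3 in leptin replicate 2, 0.200 CPM, lay at the level of 3 counts.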

How the data were processed

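The authors deposited raw counts of read pairs for each gene in separate tables. The file headers name featureCounts 2.0.1, run over exons of GENCODE release 44, without strand, multi-mapping or multi-overlap options. The submitters' processing notes name featureCounts 1.5.0-p3, a version other than that in the headers, beside HISAT2 2.0.5, DESeq2 and the build hg38. Per the labels' protocols, directional libraries were read as 150-base pairs. Such counting lowers genes with overlapping neighbours. All 62700 IDs matched a symbol, and 0 columns of other samples were found.

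The fit used R 4.3.3 and edgeR 4.0.16: filterByExpr (minimum count 10, minimum total 15), TMM scaling, robust quasi-likelihood test with no block, and adjustment by Benjamini-Hochberg over all 15685 tested genes at 0.05. CPM use TMM-scaled totals, RPKM divide CPM by exon length in kilobases, and standard errors follow from the fold change and the F statistic. Log2 CPM used a prior count of 2. GC content came from the longest transcript in GENCODE release 29 (97.2% of tested genes), and its trend was a lowess with a span of 0.3. On simulated counts, the test called 78 of 100 genes given a 2-fold change, 98 of 100 given 4-fold and 8 of 15209 left alone. The simulation gave both groups the same spread and held no GC trend and no outlying library. These rates therefore may not hold for the measured counts. No pair of replicates was alike within counting error (chi-square of 5.3 to 45.7 for each gene). The alternatives were DESeq2 1.42.0, other scalings, no filter, an adjusted p under 0.01, a replicate block, removal of the GC trend and leaving out each library. Figures used Python 3.11.15 and matplotlib 3.10.9.

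The AP-1 genes and the related lists were chosen with earlier results of these data known. Named genes are the AP-1 genes, up to 6 called genes per list by smallest adjusted p, 12 genes fixed by name (1 of them is not reported here), and the 3 genes most like each called AP-1 gene. DNMT1, TIMP1, F3, IL6 and VEGFA were named after their values were seen.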

Additional observations from a re-analysis of the deposited data

How the results depend on the processing

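The AP-1 gene counted as changed (1) became 2 with DESeq2, 2 without the filter on low counts, 0 at an adjusted p under 0.01 and 0 to 4 when 1 library was left out. With the GC trend removed and leptin replicate 1 left out, an alternative chosen after seeing the data, 3 passed: FOS and JUN lower and ATF2 higher. The log2 fold change of JUNB was -0.0784 with the GC trend removed and -0.16 in that combined alternative, and that of FOSL1 was -0.303 to 0.0137 in the leave-outs, above 0 without leptin replicate 1; the cause was not tested. Over all genes 1538 calls became 2437 without the filter, 868 with the GC trend removed (426 higher, 442 lower, against 896 and 642), 274 at 0.01 and 115 to 4761 in the leave-outs. Of 4 called AP-1 relatives there was 1 at 0.01, and 0 to 7 in the leave-outs. The 3 called MAPK, SRF and ELK genes became 8 with DESeq2, 5 with upper-quartile scaling, 8 without the filter, 1 at 0.01 and 1 to 17 in the leave-outs. The 4 called immediate early genes became 7, 8 and 0 with DESeq2, without the filter and at 0.01, and 0 to 10 in the leave-outs; the 11 called AP-1 targets became 18, 20 and 5, and 4 to 25. A replicate block called 1 AP-1 gene and 1303 genes in all. The labels do not say whether libraries with the same replicate number share a culture or day. Deviations of same-numbered libraries correlated at -0.0489, 0.0147 and -0.109, and those of differently numbered libraries at -0.0525 to 0.101. With so few libraries these values cannot decide whether the libraries were paired. FOS, at 5 to 66 counts per library, and FOSB, at 2 to 11, are limited by depth.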
